A study of Mus musculus with 12 samples.

Results

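Zinc finger genes of chromosomes 2, 7 and 17 were examined in mouse embryonic stem cells that differ in a segment of chromosome 13. They are the protein-coding genes of these 3 chromosomes whose symbol is Zfp followed by a number, other than Zfp57. The rule used the annotation alone and no measured value. It found 154 of the 43346 genes in the deposited table, with 25 on chromosome 2, 89 on chromosome 7 and 40 on chromosome 17. The whole genome holds 365 protein-coding genes with such a symbol.

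RNA was sequenced from 4 groups of 3 libraries each. B6 is the inbred strain C57BL/6J and D2 is the inbred strain DBA/2J. B6-13D2, labelled B6.D2-(rs30079041-rs51756099)/Bakr, is a congenic strain with a D2 segment of chromosome 13 on the B6 background. D2-13B6 carries a B6 segment of chromosome 13 on the D2 background, and is labelled D2.B6-(rs29224292-rs13469455)/Bakr on the samples but with rs51756099 as the second marker in the series design. By these genotypes none of the genes described here lies in the exchanged segment, so B6 and B6-13D2 share their alleles, as do D2 and D2-13B6. All 4 groups grew in 15% serum with LIF, 1 µM PD0325901 (an inhibitor of the kinase MEK) and 3 µM CHIR99021 (an inhibitor of the kinase GSK3). The protocol gives each strain as separate cultures of a single cell line, so strain and line cannot be told apart. In their titles the libraries are technical replicates, and p-values measure only the spread between these cultures. B6 replicate 3 carries another line name than the other B6 libraries, and for D2 the line in the titles and the line in the cell line field are not the same.

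Most mouse genes with a Zfp number encode proteins with C2H2 zinc fingers, small domains that bind DNA in tandem arrays. Many of them also carry a KRAB domain, which recruits the corepressor Trim28 and through it the histone methyltransferase Setdb1, HP1 proteins and histone deacetylases, so that the bound site, often a transposable element, is silenced. Genes of this kind arose by tandem duplication and lie in clusters of close copies that differ between mouse strains. The symbol also covers proteins of other kinds, among them the RNA-binding protein Zfp36 and the ubiquitin ligase Zfp598. The series title concerns trans-regulation of heterochromatin, and the reciprocal congenic lines ask which differences between the strains go with the segment and which with the rest of the genome.

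Library totals ranged from 22184196 to 36411799 expected counts. All 8 markers of embryonic stem cells that were looked up were detected, with Pou5f1, the defining pluripotency factor, at 692 ± 54.5 CPM (counts scaled to the library total, SD, n = 3) in B6 and 532 ± 11.6 in D2. The 8 stem cell markers summed to 4289 to 4657 CPM in B6, 4907 to 5231 in B6-13D2, 3068 to 3150 in D2 and 3856 to 3923 in D2-13B6. Against B6, 7 of the 8 were higher in B6-13D2 and 1, Klf4, was lower. A list of 6 fibroblast genes moved with the groups as well: its summed level was 9295 to 10108 CPM in B6, 3068 to 3154 in B6-13D2, 13988 to 16785 in D2 and 7611 to 7943 in D2-13B6. All 6 fibroblast genes were higher in D2 than in B6, all 6 were lower in B6-13D2 than in B6, and 5 of 6 were lower in D2-13B6 than in D2, while none was at 0. At far lower levels, 4 neural genes summed to 53.1 to 57.1 CPM in B6, 40.9 to 43.02 in B6-13D2, 68.6 to 70.4 in D2 and 52.5 to 53.1 in D2-13B6. The 5 primitive endoderm genes summed to 10.3 to 12.2, 7.08 to 7.75, 12.2 to 13.8 and 14.9 to 15.3 CPM in that order of groups, and the 3 mesoderm genes to 12.04 to 15.05, 15.2 to 17.6, 8.57 to 8.79 and 8.36 to 8.64 CPM. Genes within a list did not all move together. In B6-13D2 against B6, 3 neural genes were lower and 1, Sox1, was higher, and in D2 against B6, 2 primitive endoderm genes were higher and 1 lower. In bulk RNA, fewer cells of a type and less RNA per cell cannot be told apart. The part of these markers in the differences given here was not tested.

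Of the 154 zinc finger genes, 149 passed the filter on low counts and were tested. The other 5 are Zfp663 and Zfp967, both listed at 0 counts once rounded, Zfp831 with 12 counts over all libraries, Zfp969 with 35.5, of which 17 are in B6 replicate 1, and Zfp541 with 63. Levels were modest, with a median over all 154 genes of 9.99 CPM in B6, 9.88 in B6-13D2, 8.20 in D2 and 10.1 in D2-13B6. Per length, the 4 highest mean levels over the 4 groups were those of Zfp428 at 50.4 RPKM (CPM per kilobase of exons), Zfp106 at 49.7, Zfp568 at 30.8 and Zfp598 at 29.4. Close copies are common here: 48 of the 154 genes had counts that were not whole in some library, which means that the authors' method divided reads among genes, and 45 of these 48 share at least 1 transcript stretch of 100 bases with another gene. Among the 106 genes with whole counts, 27 do.

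The results turn in part on a cluster of close copies at the distal end of chromosome 2, so the stretch upstream of 3 of its genes is shown first. Each sequence is the 250 bases before the RefSeq start of the gene (GRCm38.p6), written 5′ to 3′ on the gene's strand in lower case, with the letters CCAAT and their reverse complement ATTGG in capitals. Zfp966 (chr2:175931101-175931350, minus strand) and Zfp971 (chr2:178023034-178023283, plus strand) were lower with the D2 segment on both backgrounds. Zfp931 (chr2:178078426-178078675, minus strand), a close copy in the same cluster, was not. Zfp931, Zfp965 and Zfp972 are named here after their values were seen.
Zfp966: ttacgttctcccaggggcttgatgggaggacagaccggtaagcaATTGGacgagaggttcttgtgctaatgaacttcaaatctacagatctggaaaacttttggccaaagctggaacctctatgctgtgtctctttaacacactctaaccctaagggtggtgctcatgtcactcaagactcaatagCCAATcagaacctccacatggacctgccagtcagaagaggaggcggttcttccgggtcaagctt
Zfp971: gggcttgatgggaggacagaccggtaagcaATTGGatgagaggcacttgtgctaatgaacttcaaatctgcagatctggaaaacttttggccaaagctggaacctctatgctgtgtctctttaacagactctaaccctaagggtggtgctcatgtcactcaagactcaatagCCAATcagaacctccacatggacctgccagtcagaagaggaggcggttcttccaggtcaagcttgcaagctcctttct
Zfp931: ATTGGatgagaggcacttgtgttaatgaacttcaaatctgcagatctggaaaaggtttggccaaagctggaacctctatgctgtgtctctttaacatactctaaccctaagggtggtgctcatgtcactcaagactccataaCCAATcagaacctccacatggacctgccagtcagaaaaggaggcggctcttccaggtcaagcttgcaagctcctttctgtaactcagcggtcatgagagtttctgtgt
Of the 5 genes of this cluster that were lower with the D2 segment, Zfp966 and Zfp970 held that call under 6 of 6 other settings, Zfp971 under 4, and Zfp968 and Zfp973 under 1. Among these 5, any pair of promoters (250 bases before to 50 after the start) was 97.3% to 100% identical over 260 to 300 aligned bases. Zfp931 was 94.5% identical to Zfp966 and 97.0% to Zfp971. Zfp965, which was at about 1 CPM and not called in either congenic comparison, had a promoter 100% identical to that of Zfp973, 99.7% to that of Zfp966 and 98.6% to that of Zfp970. Its log2 fold changes were -0.06 (SE 0.30) and 0.21 (SE 0.26), with errors that do not exclude the values of Zfp973. The promoter of Zfp967 is identical to that of Zfp966, yet Zfp967 is listed at 0 counts, and every one of its 100-base transcript stretches also lies in other genes. RefSeq promoters were found for 140 of the 154 genes. CCAAT on either strand was in a promoter of 76 of these 140 genes (54.3%), and in 37.4% of all 32851 promoters. TATAAA on either strand was in a promoter of 6.43% of the genes, and in 13.6% of all promoters. The first share counts genes and the second counts promoters, so the 2 are not like measures. The 140 genes also include 8 of this cluster whose promoters share a stretch of 40 bases. These matches describe letters in a window and not sites of binding.

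More of these zinc finger genes were lower in D2 than in B6 than were higher, and on all 3 chromosomes. By edgeR's quasi-likelihood test at an adjusted p under 0.05 (called, from here on), 82 of 149 differed between the parental strains, 68 lower and 14 higher in D2. Over all 17148 genes tested 60.0% were called, 30.3% lower and 29.8% higher, so the share called was not above the rest of the genome and its direction was uneven, with 45.6% of the tested zinc finger genes lower. The median log2 fold change was -0.19, against 0.01 for all genes. RLE scaling and DESeq2 raised the median of all genes by 0.05 here, and the split was then 58 lower and 19 higher, and 56 and 16. On chromosome 2, 11 genes were lower and 2 higher of 21 tested, with a median of -0.34. On chromosome 7 the numbers were 33 and 7 of 88 (median -0.12), and on chromosome 17 they were 24 and 5 of 40 (median -0.28). All tested genes of the same chromosomes had medians of 0.01, -0.05 and -0.07. The 199 tested Zfp genes of other chromosomes also leaned lower, with 86 lower and 39 higher and a median of -0.15. Without B6 replicate 3, whose line name differs, 80 of the 149 were called in D2 against B6 and 64 in B6-13D2 against B6.

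Differences were small in size, and 6 of the 82 called genes reached a log2 fold change of 1 in either direction, or 6 of 149 tested, against 11.3% of all genes. Zfp658 on chromosome 7 had 3.43, 3.86 and 4.33 CPM in the B6 libraries and 0.875, 1.42 and 1.27 in D2. Its groups did not overlap, which was required of the genes named here by fold change. Its log2 fold change was -1.68 (SE 0.21, adjusted p = 2.76e-06). Zfp942 on chromosome 17 had 22, 20.9 and 22.7 CPM in B6 and 8.66, 10.1 and 10.9 in D2, again without overlap, and its log2 fold change was -1.15 (SE 0.075, adjusted p = 6.20e-10). Zfp976 on chromosome 7 fell from 30.5, 25.8 and 27.9 CPM to 12.7, 13 and 13.2, a log2 fold change of -1.11 (SE 0.070) in which every D2 library was below every B6 library. In the other direction, Zfp677 on chromosome 17 rose from 1.27, 1.26 and 0.986 CPM in B6 to 2.75, 2.34 and 2.5 in D2, by 1.10 (SE 0.20, adjusted p = 1.27e-04). Zfp36 on chromosome 7, which encodes tristetraprolin, a protein that binds AU-rich messenger RNAs and hastens their decay, rose from 28.6, 29.3 and 27.6 CPM to 56.4, 53.7 and 50.7, by 0.91 (SE 0.059, adjusted p = 5.70e-10). Zfp36 is no KRAB gene, and among the chromosome 7 genes called higher it had the largest fold change.

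The reverse lean appeared when the D2 background received the B6 segment. In D2-13B6 against D2, 97 of 149 genes were called (57.3% of all genes), 76 higher and 21 lower (27.6% and 29.7% of all genes), with a median log2 fold change of 0.23 against 0.00 for all genes. Chromosome 2 had 13 higher and 2 lower (median 0.31), chromosome 7 had 40 and 13 (median 0.19), and chromosome 17 had 23 and 6 (median 0.27). The Zfp genes of other chromosomes had 78 higher and 36 lower of 199 (median 0.13). This comparison shares the D2 libraries with D2 against B6, so the opposite leans are not separate results.

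The D2 segment was also compared on the B6 background. In B6-13D2 against B6, 74 of 149 genes were called (58.3% of all genes), 35 higher and 39 lower (25.4% and 32.9% of all genes), with a median of 0.00 against -0.04 for all genes. RLE scaling and DESeq2 raised the median of all genes by 0.06, and the split depended on the scaling: with RLE size factors in edgeR it was 42 higher and 27 lower, and with DESeq2 37 and 22. Chromosome 2 had 4 higher and 9 lower of 21 tested, chromosome 7 had 21 and 19 of 88, and chromosome 17 had 10 and 11 of 40. The fibroblast list was lower in both congenic comparisons, with Col1a1 at -1.62 (SE 0.051) and -1.004 (SE 0.050). Its part in the zinc finger values was not tested.

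The backgrounds were also compared directly. B6-13D2 against D2, which carry the same segment, had 97 genes called (74.6% of all genes), 69 higher and 28 lower (36.7% and 38.0% of all genes), with a median of 0.22. D2-13B6 against B6 had 71 called (59.0% of all genes), 31 higher and 40 lower (24.5% and 34.6%), with a median of 0.00. That split was 45 and 38 with RLE size factors, 47 and 35 in a fit on these libraries alone, and 36 and 34 with DESeq2. The congenic lines compared with each other had 89 called (70.2% of all genes), D2-13B6 being higher in 42 and lower in 47 (38.4% and 31.8%), with a median of -0.01. All tested genes had medians of 0.00, -0.06 and 0.06 in these 3 comparisons. In B6-13D2 against D2 the genes of chromosomes 7 and 17 had medians of 0.12 and 0.19 themselves, against 0.15 and 0.30 for the zinc finger genes there. RLE scaling raised the median of all genes by 0.05 in D2-13B6 against B6, so a median near 0 there holds for TMM scaling. Log2 fold changes of at least 1 in size were rare. They were seen in 3 called genes in B6-13D2 against B6 (14.5% of all genes) and 2 in D2-13B6 against D2 (8.96%). B6-13D2 against D2 had 18 (28.1%), D2-13B6 against B6 had 7 (11.6%) and the congenic lines had 8 (22.1%).

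Summed over all 154 genes, the level was 3282 ± 22.7 CPM (SD, n = 3) in B6, 3372 ± 24.4 in B6-13D2, 2786 ± 58.5 in D2 and 3099 ± 2.2 in D2-13B6. On chromosome 2 the sums were 895 ± 7.4, 969 ± 10.7, 701 ± 19.3 and 765 ± 2.6 CPM in the same order, and Zfp106 alone made up most of them, at 555 ± 4.64, 639 ± 7.54, 435 ± 11.8 and 445 ± 2.98 CPM. On chromosome 7 they were 1754 ± 16.2, 1712 ± 16.6, 1552 ± 26.7 and 1718 ± 10.8 CPM, and on chromosome 17 they were 633 ± 3.9, 691 ± 4.3, 533 ± 15.1 and 616 ± 10.8 CPM. The D2 libraries were the lowest on every chromosome. The D2-13B6 libraries lay between those of D2 and B6 on all 3 chromosomes, while B6-13D2 was above B6 on chromosomes 2 and 17 and below it on chromosome 7. On chromosome 2 the rise from B6 to B6-13D2 was smaller than that of Zfp106 alone, and 9 genes there were called lower and 4 higher. The rise over all 154 genes was close in size to that of Zfp106. The stem cell markers were also lowest in D2, and their part in these sums was not tested.

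**Figure D1:**
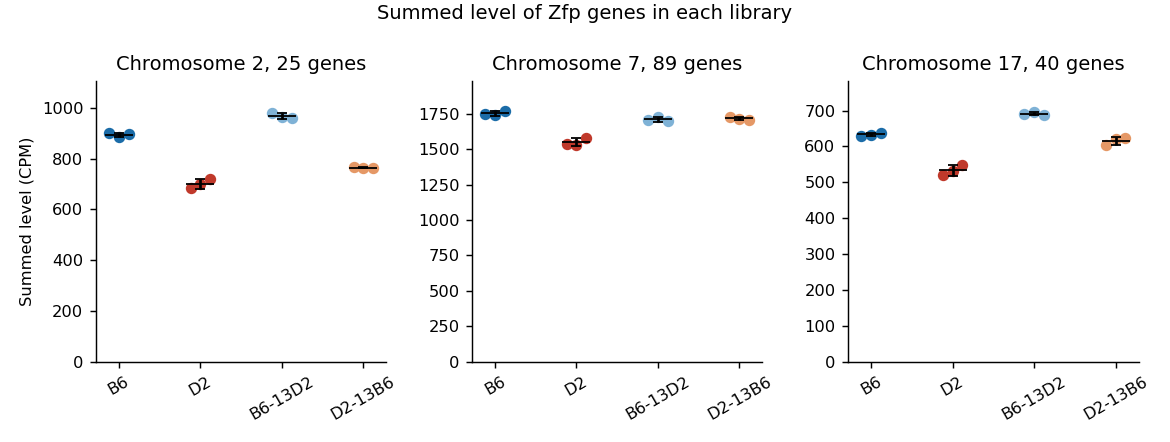
Summed level (CPM) of the Zfp genes of chromosomes 2, 7 and 17 in each of the 12 libraries. Points are libraries, bars give the mean and SD of 3 libraries, and D2 is lowest in every panel, at 701, 1552 and 533 CPM.

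**Figure D2:**
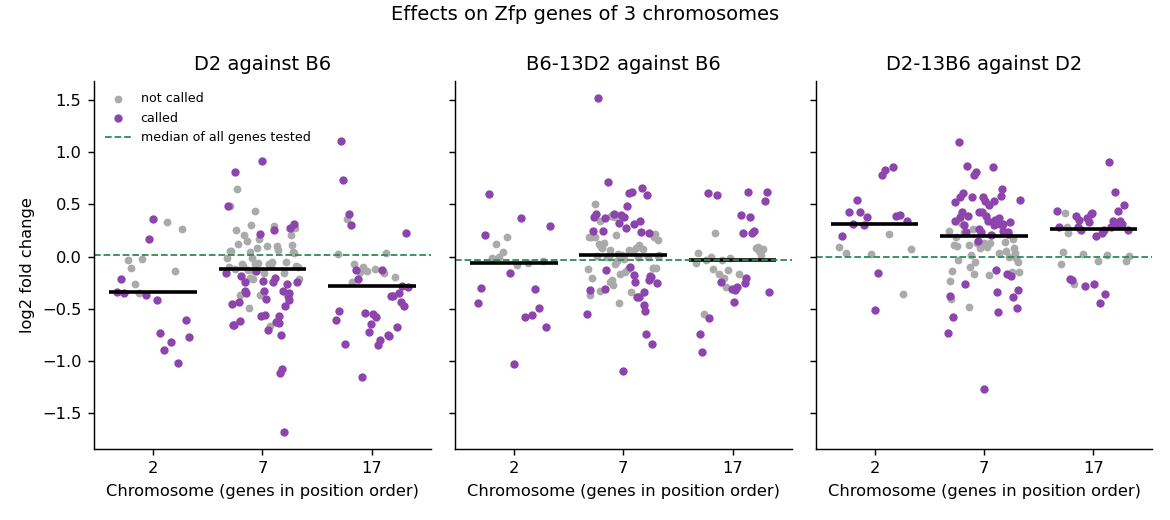
Log2 fold change of each of the 149 tested genes, ordered by position along each chromosome, in 3 comparisons. Purple points were called at an adjusted p under 0.05, black bars are the chromosome medians and the dashed line is the median of all genes tested. The medians lie below 0 in D2 against B6 (-0.34, -0.12 and -0.28) and above 0 in D2-13B6 against D2 (0.31, 0.19 and 0.27).

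Genes follow the segment when they were called in both congenic comparisons and the D2 segment moved them the same way on both backgrounds. These comparisons share no library. Of the 149 genes, 55 were called in both (39.6% of all genes) and 14 followed the segment (9.40%, against 7.33% of all genes). All 14 were lower with the D2 segment, where 4.31% of all genes were lower and 3.02% higher. Among the Zfp genes of other chromosomes 17 of 199 (8.54%) followed it, 16 lower and 1 higher. The direction is not free of the lean described above, since most called genes were higher in D2-13B6 than in D2. Chromosome 2 gave 6 of its 21 tested genes, chromosome 7 gave 5 of 88 and chromosome 17 gave 3 of 40. Of all 1391 tested genes of chromosome 2, 102 (7.33%) followed the segment. In the other 41 of the 55, both congenic lines lay on the same side of their background strain, 27 above and 14 below it. Over all genes this held for 5529 of the 6786 called in both, with the split the other way, 2126 above and 3403 below.

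The number that followed depended on the processing. It was 7 with DESeq2, 8 with RLE size factors, 7 when each comparison was fitted on its own libraries, 8 without B6-13D2 replicate 3 and 10 without B6 replicate 3, and with RLE or DESeq2 1 of them was higher with the D2 segment. Zfp770, Zfp966 and Zfp970 on chromosome 2, Zfp141 and Zfp715 on chromosome 7 and Zfp945 on chromosome 17 followed it under each of 6 other settings of the fit. Zfp971 did so under 4 of the 6 and in 7 of the 12 fits that leave out a library. Zfp260 and Zfp758 did so under 3, Zfp968, Zfp973 and Zfp568 under 1, and Zfp296 and Zfp995 under none.

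Within the distal cluster of chromosome 2 (chr2:174643534-178078476; GENCODE M21, GRCm38), 11 of the zinc finger genes lie within 1 Mb of a neighbour, and 8 of them were tested. In B6-13D2 against B6, 5 were lower and 1 higher (58.3% of all genes called), and in D2-13B6 against D2, 5 were higher and 0 lower (57.3%). Zfp966 (chr2:175918881-175931100) had 17.8, 17 and 18 CPM in the B6 libraries, 12.6, 12.3 and 10.7 in B6-13D2, 7.83, 10.7 and 11.3 in D2 and 20.01, 16.2 and 17.7 in D2-13B6. The B6 and D2-13B6 libraries, which carry the B6 segment, were all above the D2 and B6-13D2 libraries. The log2 fold changes were -0.56 (SE 0.11, adjusted p = 1.88e-04) in B6-13D2 against B6 and 0.85 (SE 0.11, adjusted p = 1.82e-06) in D2-13B6 against D2, and D2-13B6 against B6 was not called, at 0.03 (SE 0.10, adjusted p = 0.796).

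Zfp970 (chr2:177464733-177478129) had 15, 15.7 and 17 CPM in the B6 libraries, 11.6, 11.7 and 10.7 in B6-13D2, 8.37, 7.73 and 7.51 in D2 and 11.1, 10.3 and 9.66 in D2-13B6. Every B6 library was above, and every D2 library below, all others, and the congenic libraries overlapped in between. Its log2 fold changes were -0.49 (SE 0.075, adjusted p = 2.34e-05) in B6-13D2 against B6 and 0.40 (SE 0.081, adjusted p = 3.90e-04) in D2-13B6 against D2, and the full difference between the parental strains was -1.01 (SE 0.080). Zfp971 had 6.5, 4.74 and 6.69 CPM in the B6 libraries, 3.57, 3.72 and 3.96 in B6-13D2, 3.58, 4.31 and 3.78 in D2 and 5.04, 4.98 and 4.83 in D2-13B6. All libraries with the B6 segment were above all with the D2 segment, and the log2 fold changes were -0.67 (SE 0.13) and 0.34 (SE 0.13). Zfp968, at a low level, had 2.28, 1.85 and 2.06 CPM in the B6 libraries, 0.969, 1.74 and 1.43 in B6-13D2, 1.33, 0.946 and 1.09 in D2 and 2.001, 2.19 and 1.7 in D2-13B6. Its B6-13D2 libraries reached from the D2 range into that of D2-13B6, and its log2 fold changes were -0.57 (SE 0.23, adjusted p = 0.0386) and 0.82 (SE 0.23, adjusted p = 0.00511). Zfp973 had 4.62 ± 0.304 CPM in B6, 3.72 ± 0.25 in B6-13D2, 4.23 ± 0.358 in D2 and 5.5 ± 0.247 in D2-13B6. The difference between B6 and D2 was not called (-0.14, SE 0.11, adjusted p = 0.315), although it was called in both congenic comparisons, with -0.31 (SE 0.12) and 0.39 (SE 0.11).

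The neighbours did not all move in this way. Zfp931, whose promoter is shown above, had 7.38, 5.96 and 5.62 CPM in the B6 libraries, 7.51, 7.25 and 8.49 in B6-13D2, 2.999, 4.03 and 4.01 in D2 and 3.73, 3.79 and 4.22 in D2-13B6. Both groups with the B6 background were above both with the D2 background, and B6-13D2 passed the threshold narrowly as higher than B6 (0.29, SE 0.12, adjusted p = 0.04998). Zfp965 and Zfp972, at about 1 CPM, were called in none of the comparisons between a congenic line and its background strain. By genotype chromosome 2 is of B6 origin in both B6 and B6-13D2.

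Values for single copies in this cluster are uncertain, because the reads of 9 of its 11 genes were divided among similar genes. The share of 100-base transcript stretches found in other genes was 88.6% for Zfp968, 79.9% for Zfp966, 73.2% for Zfp973, 22.1% for Zfp971 and 17.4% for Zfp970. None of these stretches lies in a gene of chromosome 13, and among all 154 genes 3, found after the values were seen, share any with that chromosome (Zfp575 4.73%, Zfp975 0.624% and Zfp972 0.262% of their stretches). A sum over copies does not depend on how reads are divided among the copies it holds, but it does depend on reads divided with genes outside it. Of all annotated genes, 28 have a promoter that shares a stretch of 40 bases with that of Zfp968, all on chromosome 2, and 27 of them are in the table. They summed to 346 ± 5.38 CPM in B6, 346 ± 11.9 in B6-13D2, 233 ± 13.2 in D2 and 320 ± 2.55 in D2-13B6. This family leaves out Zfp969, and also Gm14327 and Gm14418, the genes that share most stretches with Zfp971 and Zfp931. Its sums can therefore still depend on how reads were divided. The ranges of B6 and B6-13D2 overlapped for the family as a whole, and every D2-13B6 library was above every D2 library. The 8 zinc finger genes described here that belong to it had a sum of 40.7 ± 1.07 CPM in B6-13D2 against 53.4 ± 2.43 in B6, and for the 19 others the sums were 305 ± 11.7 and 293 ± 5.60 CPM.

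**Figure D3:**
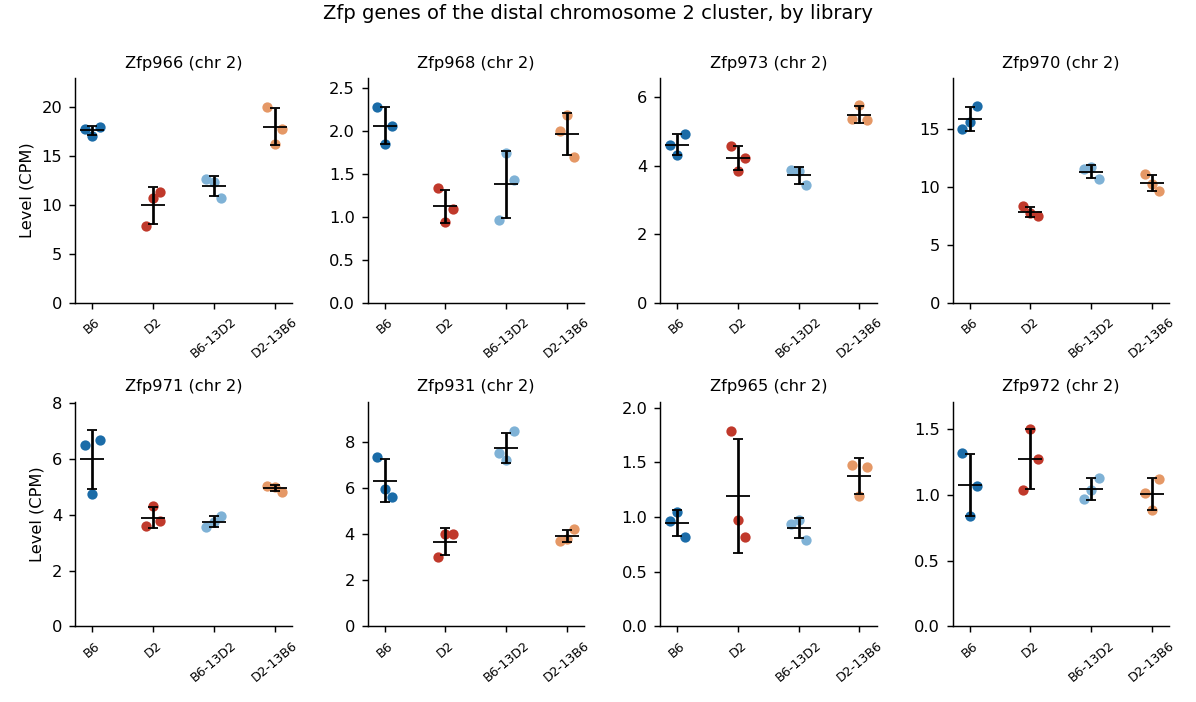
Level (CPM) of the 8 tested genes of the distal chromosome 2 cluster in each library, with the mean and SD of 3 libraries per group. In Zfp966 and Zfp971 the libraries with the B6 segment (B6 and D2-13B6) are above those with the D2 segment, and in Zfp931 the B6 background (B6 and B6-13D2) is above the D2 background.

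Outside this cluster the genes that followed the segment, apart from Zfp141 and Zfp995, had whole counts. Zfp770, at chr2:114193461-114201469, had 23.9, 24.2 and 24.6 CPM in the B6 libraries, 19.8, 20.5 and 18.8 in B6-13D2, 21.7, 19.7 and 21.3 in D2 and 22.7, 24.1 and 24.9 in D2-13B6. Each library with the B6 segment was above each with the D2 segment, with log2 fold changes of -0.30 (SE 0.059, adjusted p = 2.70e-04) in B6-13D2 against B6 and 0.20 (SE 0.057, adjusted p = 0.00664) in D2-13B6 against D2. Zfp715 on chromosome 7 had 19.5, 20.3 and 20.3 CPM in the B6 libraries, 16.2, 16 and 15.3 in B6-13D2, 14.7, 16.2 and 16.9 in D2 and 18, 18.7 and 19.7 in D2-13B6. Its groups separated by segment in the same way, with -0.34 (SE 0.063) and 0.23 (SE 0.061), and B6-13D2 against D2 was not called (-0.01, SE 0.064, adjusted p = 0.889). Zfp141 on chromosome 7 had 66.1 ± 2.9 CPM in B6 and 42.5 ± 3.15 in D2, and both congenic lines stood between them, at 50.7 ± 3.61 and 52.7 ± 0.366. Zfp945 on chromosome 17 had 22.5, 19.7 and 20.1 CPM in the B6 libraries, 16.3, 15.7 and 17.8 in B6-13D2, 19, 19.2 and 19.4 in D2 and 21.3, 22 and 22.7 in D2-13B6, with -0.32 (SE 0.065) and 0.20 (SE 0.061). The parental strains were not called for it (-0.12, SE 0.064, adjusted p = 0.129).

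Zfp568, a KRAB gene known as the repressor of a placental Igf2 transcript, had 224, 224 and 234 CPM in the B6 libraries, 211, 215 and 211 in B6-13D2, 212, 215 and 223 in D2 and 255, 247 and 245 in D2-13B6. Its changes were slight, at -0.10 (SE 0.033, adjusted p = 0.0145) and 0.20 (SE 0.033, adjusted p = 4.05e-05), and it followed the segment in 1 of the 6 other settings. Zfp296, a gene of pluripotent cells whose product binds the reprogramming factor Klf4, had 35.3, 32.8 and 38.4 CPM in the B6 libraries, 32.2, 33.2 and 32.2 in B6-13D2, 29.7, 29.3 and 31.3 in D2 and 55.1, 54.5 and 54.2 in D2-13B6. It rose in D2-13B6 by 0.86 (SE 0.050, adjusted p = 1.16e-10), while in B6-13D2 it passed the threshold narrowly (-0.13, SE 0.053, adjusted p = 0.0498). Its exons overlap those of Gemin7 on the other strand, and whether counting used the strand is not given in the sources used here. Zfp260, Zfp758 and Zfp995 changed by -0.18, -0.31 and -0.25 in B6-13D2 against B6 and by 0.30, 0.41 and 0.26 in D2-13B6 against D2.

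**Figure D4:**
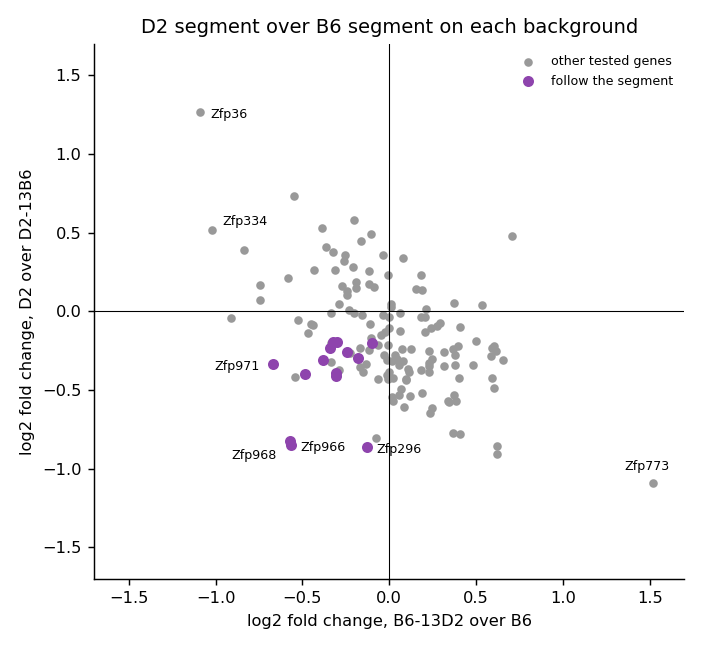
Effect of the D2 over the B6 segment on the B6 background (x axis, log2 fold change of B6-13D2 over B6) and on the D2 background (y axis, D2 over D2-13B6) for 149 genes. The 14 genes that follow the segment lie in the lower left, and Zfp36 (upper left) and Zfp773 (lower right), with opposite signs on the axes, lie farthest out.

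Many of the genes went with the background. This count was added after the values had been seen: a gene was counted when it was called in both comparisons of groups with the same segment (B6-13D2 against D2, and D2-13B6 against B6), which share no library, with the same sign for the background. It held 33 of 149 genes (22.1%, against 29.1% of all genes), 27 lower and 6 higher on the D2 background. Over all genes it held 4986, and these also leaned lower on the D2 background, with 3028 lower and 1958 higher. Chromosome 2 gave 5, chromosome 7 gave 17 and chromosome 17 gave 11. The share was below that of all genes, and 19 of the 33 have whole counts. Zfp970 and Zfp141 are counted here and also among the 14 that followed the segment.

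Zfp942 on chromosome 17 (chr17:21926960-21962464) was the plainest case, with 22, 20.9 and 22.7 CPM in the B6 libraries, 21.2, 21 and 22 in B6-13D2, 8.66, 10.1 and 10.9 in D2 and 9.46, 10.2 and 10.4 in D2-13B6. The B6 and B6-13D2 libraries overlapped, as did those of D2 and D2-13B6, with none in between. Its reads are divided with other genes. Its log2 fold changes were -0.03 (SE 0.068) and 0.02 (SE 0.079) for the segment and 1.11 (SE 0.074) and -1.13 (SE 0.073) across the backgrounds. Zfp658 had 2.67, 3.42 and 2.3 CPM in B6-13D2 and 1.34, 1.08 and 1.6 in D2-13B6, so that it too was higher in every library of the B6 background. Zfp936 on chromosome 7, singled out after its values were seen, had 23 ± 0.764 and 24.3 ± 0.749 CPM on the B6 background against 11 ± 0.939 and 12.9 ± 0.975 on the D2 background. Zfp13 on chromosome 17 had 21.8, 24 and 23 CPM in the B6 libraries, 29.7, 30.7 and 29.97 in B6-13D2, 13, 14.2 and 12 in D2 and 15.2, 15 and 15.9 in D2-13B6. Zfp213, its neighbour, had 16.4 ± 1.51 and 14.7 ± 0.655 CPM against 9.08 ± 0.898 and 6.7 ± 0.256, but its reads are divided, and Gm26695 and AC154766.4 overlap it on the other strand.

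Zfp677 and Zfp54, in a cluster on chromosome 17, were higher on the D2 background. Zfp677 had 1.27, 1.26 and 0.986 CPM in the B6 libraries, 0.692, 0.671 and 0.491 in B6-13D2, 2.75, 2.34 and 2.5 in D2 and 2.47, 2.35 and 2.99 in D2-13B6. Its B6-13D2 libraries were below all B6 libraries as well (-0.91, SE 0.24, adjusted p = 0.00325). Zfp54 had 1.1, 1.18 and 1.67 CPM in the B6 libraries, 1.07, 1.04 and 0.566 in B6-13D2, 1.999, 1.92 and 2.73 in D2 and 2.66, 2.49 and 3.67 in D2-13B6, and its log2 fold change between the congenic lines was 1.69 (SE 0.25, adjusted p = 9.19e-06). Zfp28 on chromosome 7 had 5.82 ± 0.581 CPM in B6, 7.74 ± 0.522 in B6-13D2, 10.3 ± 0.621 in D2 and 11 ± 0.896 in D2-13B6.

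**Figure D5:**
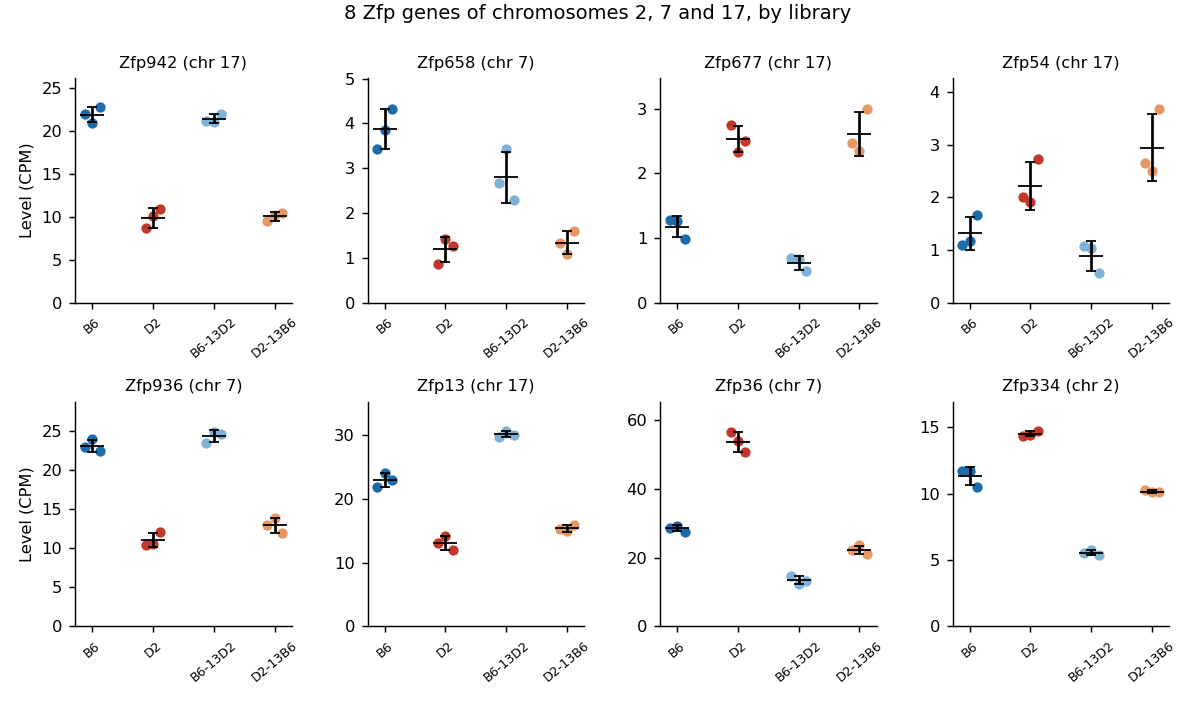
Level (CPM) of 8 genes in each library, with the mean and SD of 3 libraries per group. Zfp942, Zfp658, Zfp936 and Zfp13 are higher on the B6 background, Zfp677 and Zfp54 are higher on the D2 background, and Zfp36 and Zfp334 are highest in D2 and lowest in B6-13D2.

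The size or direction of the segment effect could differ between the backgrounds. The test of this difference called 87 of 149 genes (64.5% of all genes), 60 higher and 27 lower (31.1% and 33.4%). They include Zfp296, which followed the segment, and Zfp13, Zfp213, Zfp677 and Zfp106, which went with the background. The difference is the sum of both congenic groups minus the sum of both parental groups, and it cannot be separated from anything the congenic libraries share, such as the prefix that their columns carry in the deposited table. Zfp36 had 14.6, 12.3 and 13.3 CPM in B6-13D2 and 22.1, 23.5 and 21.1 in D2-13B6, below the parental values given above in every library. The log2 fold changes were -1.09 (SE 0.068) and -1.27 (SE 0.059), and the difference was -2.36 (SE 0.090, adjusted p = 1.23e-13). Zfp334 on chromosome 2 had 11.7, 11.7 and 10.5 CPM in the B6 libraries, 5.57, 5.77 and 5.36 in B6-13D2, 14.4, 14.5 and 14.7 in D2 and 10.3, 10.1 and 10.1 in D2-13B6, with -1.02 (SE 0.076) and -0.51 (SE 0.065). Zfp768 on chromosome 7 had 7.49 ± 0.749, 4.19 ± 0.249, 8.58 ± 0.655 and 6.57 ± 0.471 CPM in the same order of groups.

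In these 3 genes the groups stand in the order of the fibroblast list, with D2 highest, then B6, D2-13B6 and B6-13D2. That order of means was found in 6 of 149 zinc finger genes (4.03%) and in 14.8% of all genes tested, and its reverse in 18 (12.1%) and 5.45%. The part of the fibroblast genes in these levels was not tested.

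Zfp628 on chromosome 7 was lower in both congenic lines than in either parental strain, with 17.8, 20.1 and 19.5 CPM in B6-13D2 and 14.9, 15.2 and 15.1 in D2-13B6 against 28.8, 27.4 and 27.7 in B6 and 25.6, 24.8 and 24.8 in D2. Zfp773, a gene of low level on chromosome 7, was higher in both, with 1.63, 1.98 and 1.06 and 1.84, 1.63 and 2.01 CPM against 0.351, 0.63 and 0.643 and 0.708, 0.89 and 0.956. It had the highest log2 fold change of the called genes in both congenic comparisons, 1.52 (SE 0.29, adjusted p = 2.48e-04) and 1.09 (SE 0.26, adjusted p = 0.00158). Zfp661 on chromosome 2 rose by 0.59 (SE 0.10) and 0.43 (SE 0.10), and Zfp811 on chromosome 17 by 0.62 (SE 0.18) and 0.91 (SE 0.19). Zfp472 on chromosome 17 rose by 0.25 (SE 0.091) and 0.61 (SE 0.090). Zfp160 on chromosome 17 fell by 0.74 on the log2 scale in B6-13D2 and stood at -0.08 in D2-13B6 (adjusted p = 0.45). Zfp523 fell in both, with -0.26 (SE 0.081) and -0.36 (SE 0.081). Zfp112 was called higher in B6-13D2 against B6 (0.71, SE 0.23) and was not called in D2-13B6 against D2 (-0.48, SE 0.24, adjusted p = 0.0955). The difference of its segment effect between the backgrounds was not called either (0.23, SE 0.33).

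Among genes with known roles, Zfp217, whose product represses transcription together with the corepressor CoREST, had 80.5, 79.7 and 78.7 CPM in the B6 libraries, 102, 104 and 101 in B6-13D2, 48.2, 46 and 50.03 in D2 and 80.2, 82.1 and 84.1 in D2-13B6. It was lower in D2 than in every other library, with -0.73 (SE 0.039, adjusted p = 4.46e-11) between the parental strains and 0.78 (SE 0.038, adjusted p = 1.42e-11) in D2-13B6 against D2. Zfp318, which controls the choice between IgM and IgD transcripts in B cells, was higher in both congenic lines (51.5 ± 0.821 and 46.7 ± 0.628 CPM) than in B6 and D2 (33.7 ± 2.13 and 39.3 ± 2.95). Zfp598, a ubiquitin ligase that senses collided ribosomes, had 109.7 ± 2.54, 129 ± 5.91, 100.03 ± 1.07 and 119 ± 3.11 CPM. Zfp110, an interaction partner of the neurotrophin receptor p75, rose by 0.25 (SE 0.044) and 0.30 (SE 0.043) in the congenic comparisons.

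Zfp106, an RNA-binding protein needed by motor neurons, changed by -0.35 (SE 0.030) in D2 against B6, rose by 0.21 (SE 0.030) in B6-13D2 against B6 and did not pass the test in D2-13B6 against D2 (0.03, SE 0.030, adjusted p = 0.359). Its reads are divided, and Gm26899 overlaps it on the other strand. Zfp64 had 66.2 ± 1.67, 62.4 ± 3.15, 49.5 ± 3.15 and 44.5 ± 1.08 CPM, and went with the background. Zfp335, part of a histone H3K4 methyltransferase complex, had 40.9 ± 0.742, 36.8 ± 1.61, 46 ± 1.83 and 46.8 ± 1.03 CPM and overlaps Pcif1 and Zfp335os. Zfp819, a KRAB gene of pluripotent cells, had 24.2, 23.4 and 24.8 CPM in the B6 libraries, 14.4, 13.6 and 15.2 in B6-13D2, 15.8, 17.5 and 18.9 in D2 and 15.4, 15.9 and 15 in D2-13B6. All libraries of the other groups were below those of B6, with B6-13D2 at -0.74 (SE 0.068, adjusted p = 3.27e-08) against B6.

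Counts are also given by cluster, to be read beside the share of all genes called, which was 60.0% between the parental strains, 58.3% between B6-13D2 and B6, and 57.3% between D2-13B6 and D2. Whether neighbours differed together more than other genes was not tested. The cluster from Zfp788 to Zfp819 on chromosome 7 (chr7:41633203-43618285) holds 10 of the genes, all tested. The test found 8 lower and 0 higher in D2 against B6, with a median of -0.61, 5 lower and 3 higher between B6-13D2 and B6, and 7 higher and 1 lower in D2-13B6 against D2. It summed to 216 ± 4.43 CPM in B6, 201 ± 3.58 in B6-13D2, 141 ± 10.3 in D2 and 171 ± 1.22 in D2-13B6. The cluster from Zfp871 to Zfp414 on chromosome 17 (chr17:32765496-33631779) holds 11, with 9 lower and 0 higher in D2 against B6, 5 higher and 1 lower in B6-13D2 against B6 and 9 higher and 0 lower in D2-13B6 against D2. Its sum was 139.6 ± 0.962 CPM in B6, 157 ± 1.91 in B6-13D2, 109 ± 2.54 in D2 and 132 ± 2.33 in D2-13B6.

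The largest cluster, 23 genes from Zfp160 to Zfp13 on chromosome 17 (chr17:21008903-23599487), was mixed. It had 12 lower and 4 higher in D2 against B6, 8 lower and 3 higher in B6-13D2 against B6 and 10 higher and 5 lower in D2-13B6 against D2, and it holds Zfp942, Zfp677, Zfp54 and Zfp13, described above. The 4 genes from Zfp120 to Zfp345 on chromosome 2 (chr2:150114406-150485091) were called in neither D2 against B6 nor B6-13D2 against B6, and all 4 were higher in D2-13B6 than in D2. Their sum was 24.5 ± 1.49 CPM in B6, 25.1 ± 0.188 in B6-13D2, 22.3 ± 1.14 in D2 and 28.7 ± 1.23 in D2-13B6, and 3 of the 4 have divided reads. On chromosome 7 the 14 genes from Zfp180 to Zfp526 had 12 not called in D2 against B6 and 12 not called in B6-13D2 against B6, with 6 higher and 0 lower in D2-13B6 against D2. The 10 genes from Zfp553 to Zfp646 on chromosome 7 had 2 higher and 2 lower in D2 against B6, and 4 lower and 0 higher in each congenic comparison. The 6 from Zfp628 to Zfp580 had 1 higher and 1 lower, and then 2 lower and 0 higher in each. The 6 from Zfp60 to Zfp36 had 2 higher and 1 lower in D2 against B6, with sums of 110 CPM in D2 and 93.0 in B6. From Zfp335 to Zfp334 on chromosome 2, 2 were higher and 0 lower, with 60.5 and 52.3 CPM. In the same comparison, on chromosome 7, the 15 from Zfp84 to Zfp146 had 6 lower and 1 higher. The 10 from Zfp787 to Zfp772 had 4 and 1, and the 7 from Zfp551 to Zfp446 had 3 and 0. The cluster from Zfp180 to Zfp526 includes Zfp428, singled out after its values were seen, which had 97.6, 93.6 and 97.7 CPM in D2-13B6 and from 52.5 to 62.3 in the other 9 libraries.

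The partners through which KRAB proteins act were read from a list of 15 genes, all tested. In D2 against B6, 10 were lower and 2 higher (60.0% of all genes were called). In B6-13D2 against B6, 6 were higher and 3 lower, a share near the 58.3% of all genes. The B6 segment on the D2 background went with 8 higher and 3 lower (57.3% of all genes). Trim28, the corepressor that binds the KRAB domain, had 1779.7 ± 41.2 CPM in B6, 1798 ± 33.5 in B6-13D2, 1830.2 ± 29.5 in D2 and 1881 ± 16 in D2-13B6, and was called in none of these comparisons. Setdb1, the H3K9 methyltransferase of this pathway, had 142 ± 3.39, 140.2 ± 2.04, 106 ± 4.18 and 127 ± 4.14 CPM. It was lower in D2 than in B6 (-0.42, SE 0.038) and higher in D2-13B6 than in D2 (0.26, SE 0.038). The HP1 genes differed among themselves: Cbx1 changed by -0.62 (SE 0.035), 0.27 (SE 0.034) and 0.72 (SE 0.035) in the 3 comparisons, and Cbx5 by 0.14 (SE 0.031), 0.30 (SE 0.031) and 0.04 (SE 0.031). Chd3, a nucleosome remodeller, fell by 1.06 (SE 0.053) on the log2 scale in B6-13D2 against B6, and changed by -0.76 (SE 0.050) in D2-13B6 against D2 and by 0.17 (SE 0.050) in D2 against B6. Its group means stood in the order of the fibroblast list. Resf1, which acts with Setdb1 on retroviral elements, was lower in D2 than in B6 (-0.77, SE 0.046) and in B6-13D2 than in B6 (-0.32, SE 0.045).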

How the data were processed

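RNA was sequenced from 12 libraries of mouse embryonic stem cells with a poly(A) kit and paired reads of 150 bases, per the labels' protocols. The authors deposited expected counts per gene, whose title names EMASE, a method that divides reads shared by several genes. Bowtie 1.0.0, edgeR 3.34.1 and the build mm10 are named in the submitters' processing notes. The annotation release, filters and strand setting are not given in the sources used here. Of the deposited values, 88.1% were whole within 1e-06. Library totals of 22184196 to 36411799 limit precision mainly for genes near 1 CPM.

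Gene names, types and positions came from GENCODE M21 (GRCm38). Of the 43346 IDs, 884 were not found there and held 0.361% of reads. Expected counts were rounded and tested for all 17148 genes that passed filterByExpr (minimum count 10), with TMM scaling and quasi-likelihood fits over 4 group means in edgeR 4.0.16 (R 4.3.3), with Benjamini-Hochberg adjustment and a threshold of 0.05. CPM values use the TMM-scaled totals. Tables and plots were made with Python 3.11.15, pandas 2.3.3, numpy 2.4.6 and matplotlib 3.10.9. The code was tested on simulated counts with known changes.

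The genes, lists and tests were chosen with earlier results of these data known. Genes are named when, on each chromosome and in each of the 3 main comparisons, they had the 2 highest or the 2 lowest fold changes among called genes with no overlap between groups and a mean log2 CPM not below 0, when they followed the segment, or when they have a textbook role. Genes outside this rule are named where they bound a cluster, make up a small count or were singled out after their values were seen. Gene clusters are runs with gaps of at most 1 Mb. DESeq2 1.42.0, RLE size factors, other filters on low counts, the replicate number as a block, a minimum log2 fold change of 1, fits on the compared libraries alone, genes with whole counts alone and leaving out each library were tried as alternatives. The deviations of same-numbered libraries had a mean correlation of -0.011 over 18 pairs, so the numbers were not taken as pairs.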

Additional observations from a re-analysis of the deposited data

Results flagged for a closer look

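The effect of the segment differed between the backgrounds, by the test of that difference in edgeR, for 87 of the 149 tested genes (58.4%), against 64.5% of all genes. The difference is the log2 fold change of B6-13D2 over B6 minus that of D2 over D2-13B6. Among the named genes it was largest for Zfp773 at 2.61, Zfp811 at 1.52, Zfp217 at 1.14 and Zfp661 at 1.02. It was 0.88 for Zfp976, 0.86 for both Zfp318 and Zfp472, 0.74 for Zfp296, 0.62 for Zfp13, 0.55 for Zfp110, 0.51 for Zfp28, 0.48 for Zfp598 and 0.24 for Zfp106. It was most negative for Zfp36 at -2.36, followed by Zfp334 at -1.54, Zfp628 at -1.28 and Zfp768 at -1.22. It was -0.92 for Zfp819, -0.87 for Zfp677, -0.82 for Zfp160, -0.62 for Zfp523, -0.61 for Zfp213 and -0.24 for Zfp64. The same sum separates both congenic groups from both parental groups, and a feature shared by the congenic libraries cannot be told apart from it.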

How the results depend on the processing

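With a log2 fold change of at least 1 also required, the genes called were 6 in D2 against B6, 3 when B6-13D2 was set against B6, 2 in D2-13B6 against D2, 18 in B6-13D2 against D2, 7 in D2-13B6 against B6, 8 between the congenic lines and 11 for the difference of the segment effect, so most differences were below that size. The 14 genes that followed the segment became 7 with DESeq2, 8 with RLE size factors, 9 with no filter, 9 with the mean CPM required to reach 1, 0 with a log2 fold change of at least 1, 7 in fits on the compared libraries alone and 5 among genes with whole counts. The 33 genes that went with the background became 4 with a log2 fold change of at least 1 and 19 among genes with whole counts. Apart from the steps that test fewer genes or ask for larger effects, the cause of these moves was not tested.

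Leaving out each library in turn gave 74 to 88 genes called in D2 against B6, 60 to 74 for B6-13D2 against B6, 77 to 96 in D2-13B6 against D2, 84 to 99 in B6-13D2 against D2, 66 to 76 in D2-13B6 against B6, 80 to 94 between the congenic lines and 84 to 90 for the difference of the segment effect. It left 8 (without B6-13D2 replicate 3) to 14 that followed the segment and 30 to 36 that went with the background. With the replicate number as a block, in the same order, the counts were 81, 70, 93, 96, 71, 88 and 87, with 11 following the segment and 34 the background. None of 100 effects of named genes, or of the 71 that could be run among genes with whole counts, reversed. Those no longer past the threshold were 16 with DESeq2, 11 with RLE size factors, 4 with the replicate block, 90 with the minimum fold change and 2 to 9 under each of the others. The lists hold close copies whose divided reads no setting here can separate, and genes near 1 CPM are limited by depth.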

Other observations

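Genes with whole counts and genes with divided reads were both lowest in D2 when summed. The 106 genes with whole counts summed to 2119 ± 19.7 CPM (SD, n = 3) in B6, 2115 ± 17.5 in B6-13D2, 1874 ± 23.6 in D2 and 2095 ± 2.56 in D2-13B6. The 48 with divided reads summed to 1164 ± 3.01, 1256 ± 6.96, 912 ± 35.4 and 1004 ± 4.25 CPM in the same order. In D2 against B6, 46 of the 102 tested genes with whole counts were lower and 11 higher, and 22 and 3 of the 47 with divided reads. Over all genes 30.3% were lower and 29.8% higher.

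Zfp97 and Zfp960, close copies on chromosome 17 that share 67.3% and 68.3% of their 100-base transcript stretches with other genes, are given as a sum, chosen after their values were seen. It was 63.6 ± 2.36 CPM in B6, 63.2 ± 3.65 in B6-13D2, 55.0 ± 3.76 in D2 and 69.0 ± 2.33 in D2-13B6. The D2 libraries were all below those of the other 3 groups, though the highest of them (59.3 CPM) was close to the lowest B6-13D2 library (59.8 CPM).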
